A study of Mus musculus with 22 samples.

Results

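The members described here are the protein genes of the mitochondrial ribosome in mouse inguinal white fat. They are the genes whose symbol starts with Mrpl (large subunit) or Mrps (small subunit) followed by a digit. Of the 22180 genes with a probe set of their own on the array, 71 were members, 43 of them Mrpl and 28 Mrps. Where a member had more than 1 probe set, as 9 members did, the one with the highest mean over all arrays stood for it.

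Inguinal white fat lies under the skin, and beige adipocytes, heat-producing cells rich in mitochondria, can appear in it in the cold. The study used male C57BL/6 mice of 3 to 4 months that were wild type or lacked PPARα, a nuclear receptor for fatty acids, in the whole body, after more than 10 generations of backcrossing. Every mouse first spent 5 weeks at 28 °C, and the controls of both genotypes stayed there, while the cold groups spent 1 week at 21 °C and then 10 days at 5 °C. RNA of 22 mice was measured, 1 mouse per array: 6 wild-type and 6 PPARα-null mice at 28 °C, and 5 of each genotype at 5 °C.

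The mitochondrial ribosome makes the few respiratory chain and ATP synthase subunits that mitochondrial DNA encodes, and it sits at the inner membrane into which they are inserted. Its RNAs come from mitochondrial DNA, but all of its proteins are encoded in the nucleus, made in the cytosol and imported. The small subunit binds and decodes the mRNA, and the large subunit joins the amino acids and holds the exit tunnel. Part of the proteins have counterparts in bacterial ribosomes, and the others were added in the mitochondrial lineage.

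Values are log2 expression values, so a difference of log2 values is a log2 fold change. The correlation between arrays was 0.966 to 0.990 over all genes, and the number of arrays limits the precision. A gene was called changed where its limma p, adjusted by Benjamini-Hochberg over all 22180 genes, was under 0.05. As a check of the tissue, all 7 measured thermogenic markers rose in the cold in each genotype, among them Ucp1, the uncoupling protein of heat-producing adipocytes (7.05 in wild-type mice and 6.91 in null mice). None of the 7 measured white adipocyte markers rose, and 1 fell in wild type and 2 fell in null mice. All 10 macrophage markers fell in each genotype. None of the 12 skeletal muscle and 11 measured lymphocyte markers were called, but their mean per mouse varied widely, from 5.45 to 9.47 for muscle and from 4.01 to 8.06 for lymphocytes.

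Most members rose in the cold in both genotypes. In wild-type mice 55 of 71 members were higher at 5 °C, 1 was lower and 15 were not called, where 8.35% of all genes tested were called higher and 8.3% lower. In PPARα-null mice 47 were higher, 0 were lower and 24 were not called, against 6.88% of all genes higher and 6.33% lower. The median change of the members was 0.43 in wild-type mice and 0.38 in null mice, and the medians over all genes were 0.01 and 0.00. Averaged over both genotypes the median was a 1.31-fold increase, and 62 members were called higher, against 11.7% of all genes. The changes were modest for single genes: in wild type 1 member exceeded 1 log2 unit and 23 lay between 0.5 and 1.

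**Figure D1:**
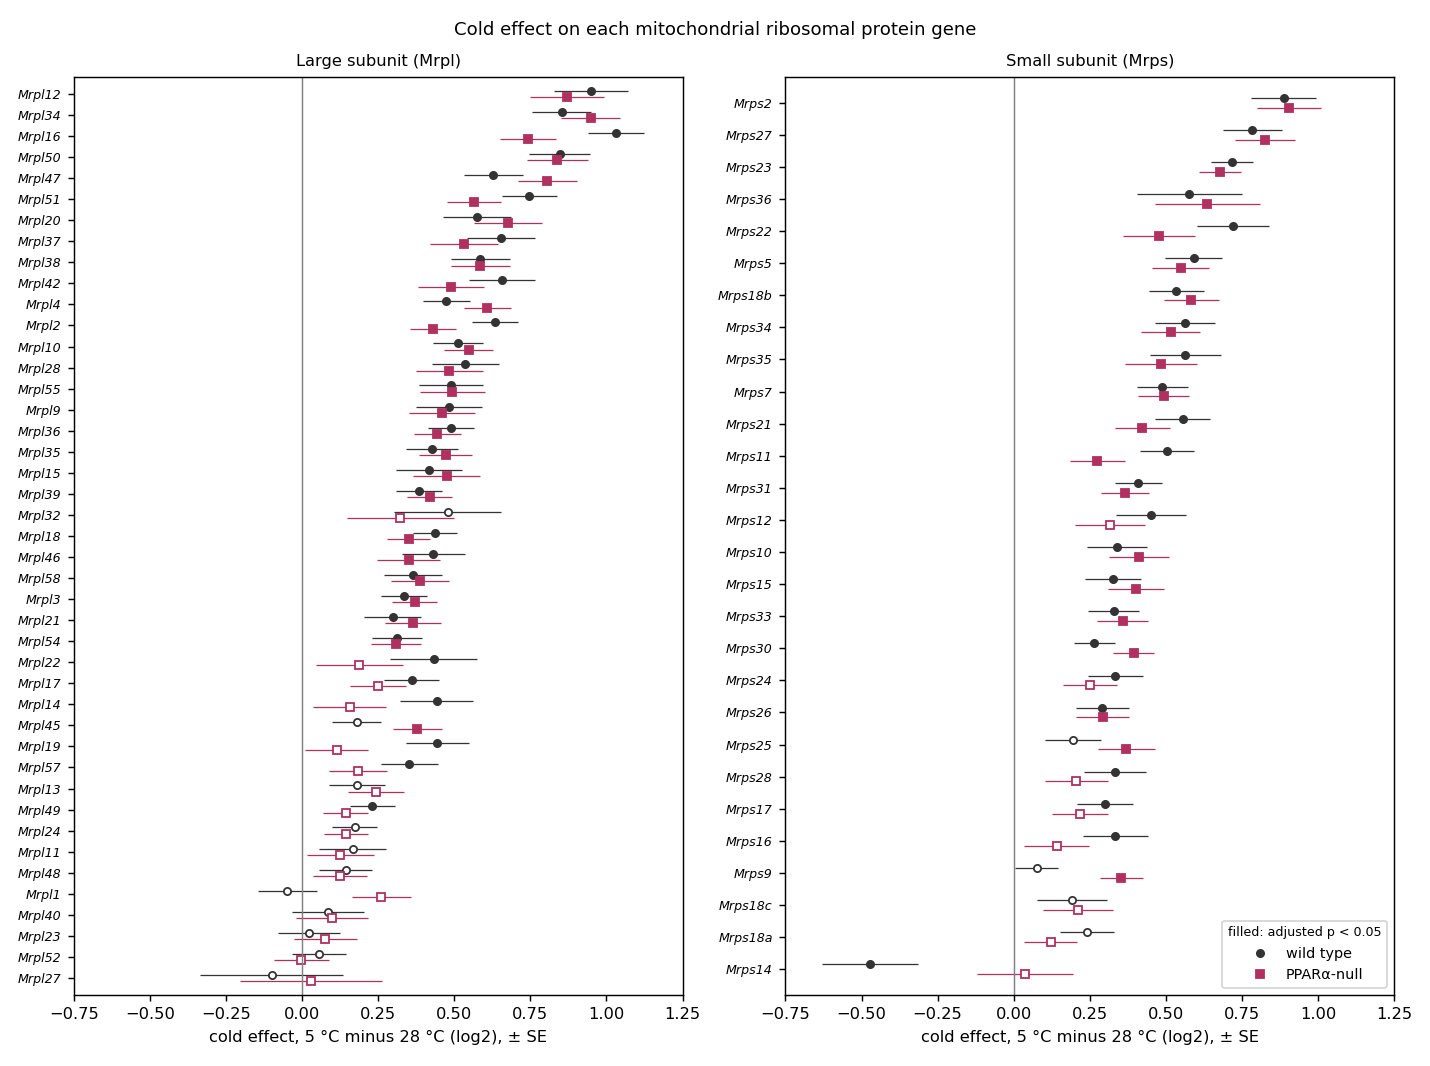
Cold effect (log2 value at 5 °C minus 28 °C, with the standard error of the limma fit) on each of the 43 large and 28 small subunit members, ordered by the average of both genotypes; black circles are wild-type mice, red squares PPARα-null mice, and filled symbols have an adjusted p under 0.05. Nearly all symbols lie to the right of 0, and Mrps14 in wild type is the filled symbol to its left.

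In both genotypes alike 44 members (62.0%) were called higher, where 5.37% of all genes were. A further 11 were called higher in wild type and not in null mice, 3 in null and not in wild type, and 13 in neither. The change was positive in both genotypes for 67 members. For 44 members every wild-type mouse at 5 °C lay above every wild-type mouse at 28 °C, which held for 6.27% of all genes. The same separation held for 33 members in null mice (5.05% of all genes) and for 28 members, or 39.4%, in each genotype (3.72% of all genes). Each genotype was compared with its own 28 °C mice, so the changes and the separations in the genotypes share no mice. The limma standard errors come from a fit of all groups together, so the calls in both genotypes are not independent of each other.

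The members' mean was formed in each mouse to show the samples behind these counts. At 28 °C the wild-type mice lay between 6.36 and 6.52 (median 6.41), and at 5 °C they read 6.76, 6.80, 6.84, 6.87 and 6.90. At 28 °C the null mice lay between 6.35 and 6.56 (median 6.44), and at 5 °C they read 6.75, 6.81, 6.81, 6.89 and 6.95. All 10 cold mice were thus above all 12 mice at 28 °C, and the genotypes overlapped at each temperature. The means were 6.42 ± 0.06 (SD, n = 6) and 6.83 ± 0.05 (SD, n = 5) in wild type, a difference of 0.42. In null mice they were 6.45 ± 0.08 (SD, n = 6) and 6.84 ± 0.08 (SD, n = 5), a difference of 0.40. The genotypes differed by 0.03 at 28 °C and 0.01 at 5 °C (null minus wild type), less than the SD within any group. In whole fat, a change in the number of cells of a type and a change in RNA per cell cannot be told apart.

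Members of both subunits rose. Of the 43 large subunit members 32 rose in wild-type mice and 27 in null mice, and of the 28 small subunit members 23 rose in wild-type mice and 20 in null mice, with 1 lower in wild type. The median changes were 0.43 and 0.38 for the large subunit, and 0.37 and 0.38 for the small subunit, in wild type and null mice. Members called higher in both genotypes made up 60.5% of the large and 64.3% of the small subunit. In each mouse the large subunit mean minus the small subunit mean was 0.13 ± 0.03 (SD, n = 6) in wild type at 28 °C and 0.14 ± 0.04 (SD, n = 5) at 5 °C. In null mice it was 0.13 ± 0.01 (SD, n = 6) and 0.12 ± 0.04 (SD, n = 5). The difference between subunits thus moved by 0.01 in wild-type mice and by -0.01 in null mice, less than the spread between cold mice. Probe sets differ in brightness, so the offset itself is no ratio of the subunits, and these values are a description without a test.

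**Figure D2:**
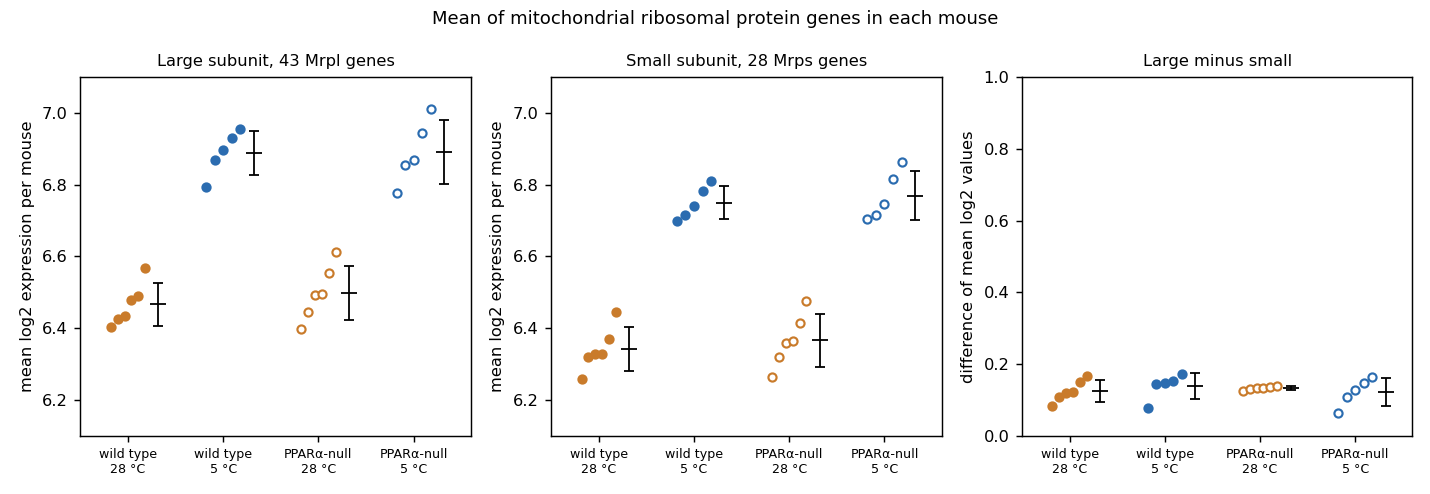
Mean log2 value of the large subunit members (left) and small subunit members (middle) and their difference (right) in each mouse; points are mice, filled for wild type and open for PPARα-null, orange at 28 °C and blue at 5 °C, with the group mean ± SD beside them. Both subunit means are higher in all 10 cold mice than in the 12 mice at 28 °C, and the difference between subunits stays between 0.06 and 0.17 in every mouse.

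Symbols do not always give the place in the ribosome. Mrps30 and Mrps18a sit in the large subunit, and Mrps36 has since been assigned to the 2-oxoglutarate dehydrogenase complex of the tricarboxylic acid cycle. With the members placed by structure, 33 of 45 large subunit members rose in wild-type mice and 28 in null mice, and 21 of 25 small subunit members rose in wild-type mice and 18 in null mice. The medians were then 0.43 and 0.38 for the large and 0.41 and 0.37 for the small subunit. Among the 44 members with a bacterial counterpart 34 rose in wild-type mice and 26 in null mice, with medians of 0.44 and 0.37. Among the 24 proteins specific to mitochondria 19 rose in each genotype, with medians of 0.40 and 0.38. The 9 mitochondria-specific proteins of the small subunit had medians of 0.56 and 0.48, and 8 of them rose in wild-type mice and 9 in null mice. The 16 small subunit members of bacterial type had medians of 0.34 in both, and 13 rose in wild-type mice and 9 in null mice. In the large subunit the order of the medians was the other way: the 15 mitochondria-specific proteins had 0.36 and 0.38, with 11 and 10 called higher, and the 28 of bacterial type 0.44 and 0.40, with 21 and 17 called higher. These splits were not tested.

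Promoter sequence was read for 62 of the 71 members, in 68 windows of 300 bases (250 before to 50 after the start site) from RefSeq on GRCm38.p6. Words were searched on both strands: GCGCANGC, bound by NRF1, CCGGAAGT, bound by ETS factors such as GABPA, AAGGTCA, a word of the estrogen-related receptors (ERR), and AAGATGGC, bound by YY1. These factors are known for nuclear genes of mitochondrial proteins. The NRF1 word was in 27.9% of the members' windows and in 9.95% of all 32851 windows, and the ETS word in 14.7% against 3.89%. The YY1 word was in 17.6% against 2.75%, and the ERR word in 5.88% against 4.72%. Any of the 4 words was in 37 windows (54.4%), against 19.5% of all windows and 23% of the windows of genes tested on the arrays. For the nuclear respiratory chain and ATP synthase genes this share was 49.3%, and for the cytosolic ribosomal proteins 40.3%. In the windows of all genes tested on the arrays, whose median GC was 56.7% against 58.5% for the members, the shares were 13.2% (NRF1), 5.11% (ETS), 4.07% (ERR) and 3.11% (YY1). The windows of the nuclear respiratory chain and ATP synthase genes held the NRF1 word in 31.9%, ETS in 7.25%, ERR in 8.7% and YY1 in 13%, and those of the cytosolic ribosomal proteins held them in 19.4%, 17.7%, 4.84% and 4.84%.

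The NRF1 word was in 8 of 40 windows of the members called higher in both genotypes and in 11 of 28 windows of the other members. The shares were 15% and 14.3% for the ETS word and 17.5% and 17.9% for the YY1 word. The ERR word was in only 4 windows, all of members called higher in both genotypes (Mrpl12, Mrpl36, Mrps15 and Mrps21). These splits were not tested. A word is a description of the letters and not a bound site. Shown are the windows of 3 members with large cold effects and of Mrps14, the member called lower, all on the plus strand, with the words in capitals. Mrpl12 is at chr11:120484387-120484686, with the NRF1 word and, after the start site, the ERR word, both on the minus strand and so shown as reverse complements. Mrpl34 is at chr8:71464676-71464975 and has none of the words. Mrps27 is at chr13:99344536-99344835, with the ETS word on the minus strand (shown as its reverse complement) and the YY1 word after the start site. Mrps14 is at chr1:160194965-160195264, with the NRF1 word at 2 places. No words overlap in these windows.
Mrpl12: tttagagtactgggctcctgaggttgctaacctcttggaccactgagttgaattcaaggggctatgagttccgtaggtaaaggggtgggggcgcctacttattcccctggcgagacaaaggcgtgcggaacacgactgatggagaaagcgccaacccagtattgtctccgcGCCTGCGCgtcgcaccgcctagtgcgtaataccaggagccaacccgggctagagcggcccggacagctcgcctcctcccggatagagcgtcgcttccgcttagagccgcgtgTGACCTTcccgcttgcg
Mrpl34: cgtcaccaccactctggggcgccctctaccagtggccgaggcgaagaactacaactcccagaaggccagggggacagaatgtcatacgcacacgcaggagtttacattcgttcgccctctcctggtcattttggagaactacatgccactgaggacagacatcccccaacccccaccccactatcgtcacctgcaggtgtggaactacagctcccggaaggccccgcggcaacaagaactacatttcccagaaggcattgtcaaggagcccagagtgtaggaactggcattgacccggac
Mrps27: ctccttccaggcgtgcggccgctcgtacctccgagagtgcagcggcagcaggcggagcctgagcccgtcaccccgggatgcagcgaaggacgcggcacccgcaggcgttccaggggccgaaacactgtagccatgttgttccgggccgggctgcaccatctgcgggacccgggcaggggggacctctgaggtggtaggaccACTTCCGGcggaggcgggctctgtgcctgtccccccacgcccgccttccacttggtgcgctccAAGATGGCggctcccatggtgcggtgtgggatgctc
Mrps14: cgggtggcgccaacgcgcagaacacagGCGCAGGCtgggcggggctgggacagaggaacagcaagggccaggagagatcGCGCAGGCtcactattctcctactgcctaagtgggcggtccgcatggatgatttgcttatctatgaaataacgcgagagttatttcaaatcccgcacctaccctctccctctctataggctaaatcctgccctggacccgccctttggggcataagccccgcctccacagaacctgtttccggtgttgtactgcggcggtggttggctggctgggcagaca

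In the large subunit the largest average cold effect was that of Mrpl12, a protein of the stalk that recruits translation factors. At 28 °C wild-type mice lay between 6.54 and 7.20 (median 7.04), and at 5 °C they read 7.80, 7.93, 7.94, 7.97 and 8.09. Null mice lay between 6.66 and 7.35 (median 7.07) and read 7.68, 7.81, 7.90, 8.09 and 8.13 in the cold. Every cold mouse was above every mouse at 28 °C. The change was 0.95 ± 0.12 (SE; 1.93-fold; limma adjusted p = 6.76e-06) in wild type and 0.87 ± 0.12 (SE; limma adjusted p = 2.33e-05) in null mice. A dimmer probe set of Mrpl12 gave 0.57 and 0.61.

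Mrpl34 is a small basic protein with a bacterial counterpart, and its window above has none of the words searched. At 28 °C the wild-type values ran from 7.30 to 7.51 (median 7.42), and the cold mice read 8.10, 8.13, 8.29, 8.39 and 8.40 at 5 °C. Null mice lay between 7.19 and 7.64 (median 7.36) and read 8.23, 8.25, 8.28, 8.29 and 8.70. The warm and cold mice did not overlap in either genotype, and 1 null mouse was higher than the others in the cold. The changes were 0.85 ± 0.10 (SE; limma adjusted p = 1.44e-06) and 0.95 ± 0.10 (SE; limma adjusted p = 4.24e-07).

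Mrpl16, the counterpart of a bacterial protein near the peptidyl transferase centre, had the largest effect of any member in wild type. Wild-type mice lay between 6.09 and 6.28 at 28 °C (median 6.17) and read 7.02, 7.08, 7.17, 7.34 and 7.42 at 5 °C. Null mice lay between 6.14 and 6.69 (median 6.40) and read 7.03, 7.06, 7.07, 7.22 and 7.36. The cold mice of both genotypes overlapped, and at 28 °C all null mice but the lowest lay above all wild-type mice. The change was 1.03 ± 0.09 (SE; 2.04-fold; limma adjusted p = 5.53e-08) in wild type and 0.74 ± 0.09 (SE; limma adjusted p = 5.4e-06) in null mice. Mrpl16 also had the smallest p of the members in the genotype comparison at 28 °C, a difference of 0.23 with a 95% interval of 0.05 to 0.41 (limma adjusted p = 0.573), which was not called.

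Mrpl50, a protein without a bacterial counterpart, was the fourth. The warm wild-type mice lay between 7.49 and 8.01 (median 7.71) and read 8.36, 8.59, 8.59, 8.60 and 8.82 in the cold. The warm null mice lay between 7.66 and 7.96 (median 7.75) and read 8.41, 8.55, 8.58, 8.67 and 8.83. Again no cold mouse overlapped with a warm one, and the changes were 0.85 ± 0.10 (SE; limma adjusted p = 2.4e-06) and 0.84 ± 0.10 (SE; limma adjusted p = 3.41e-06). The other members among the 10 largest average effects of the large subunit, given as changes in wild type and null mice, were Mrpl47 (0.63 and 0.81), Mrpl51 (0.75 and 0.56), Mrpl20 (0.58 and 0.68), Mrpl37 (0.65 and 0.53), Mrpl38 (0.59 and 0.58) and Mrpl42 (0.66 and 0.49), and all were called in each genotype.

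At the other end of the large subunit was Mrpl52, a mitochondria-specific protein whose values were as high at 28 °C as at 5 °C. Wild-type mice lay between 7.90 and 8.49 at 28 °C (median 8.19) and read 8.16, 8.16, 8.23, 8.28 and 8.31 at 5 °C. Null mice lay between 8.04 and 8.30 (median 8.14) and read 7.91, 8.14, 8.22, 8.25 and 8.27. The groups overlapped throughout, with changes of 0.06 ± 0.09 (SE; limma adjusted p = 0.752) and 0.00 ± 0.09 (SE; limma adjusted p = 0.993).

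Mrpl27, the counterpart of a bacterial protein at the peptidyl transferase centre, had the dimmest probe set of all members. In wild type the warm mice lay between 2.58 and 3.93 (median 3.71) and read 2.78, 3.25, 3.28, 3.77 and 4.06 in the cold. In null mice the warm group lay between 3.40 and 4.12 (median 3.74) and read 3.38, 3.62, 3.86, 3.95 and 4.05. Its groups overlapped widely, and with a standard error of 0.23 its changes of -0.10 (limma adjusted p = 0.835) and 0.03 (limma adjusted p = 0.962) had little precision. Mean signals of the members' probe sets ran from 3.62 to 8.39, and only Mrpl27, Mrps14 and Mrps36 lay below 4.67, the median over all genes. Members called in neither genotype spanned that whole range. The correlation of a member's average cold effect with its mean signal was 0.279 across the 71 members, which share the same arrays.

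The next lowest effects of the large subunit, as changes in wild type and null mice, were Mrpl23 (0.02 and 0.08) and Mrpl40 (0.08 and 0.10), then Mrpl1 (-0.05 and 0.26) and Mrpl48 (0.14 and 0.12), none of them called. Mrpl23 and its neighbour Mrpl24 line the exit of the tunnel, and Mrpl24 (0.17 and 0.14) was also not called in either genotype, though its average of 0.16 was (limma adjusted p = 0.0262). Mrpl45, which ties the large subunit to the inner membrane, rose by 0.38 in null mice (limma adjusted p = 0.00207) and had a change of 0.18 in wild type (limma adjusted p = 0.137). The difference between these, 0.20 with a 95% interval of -0.04 to 0.43, was not called.

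**Figure D3:**
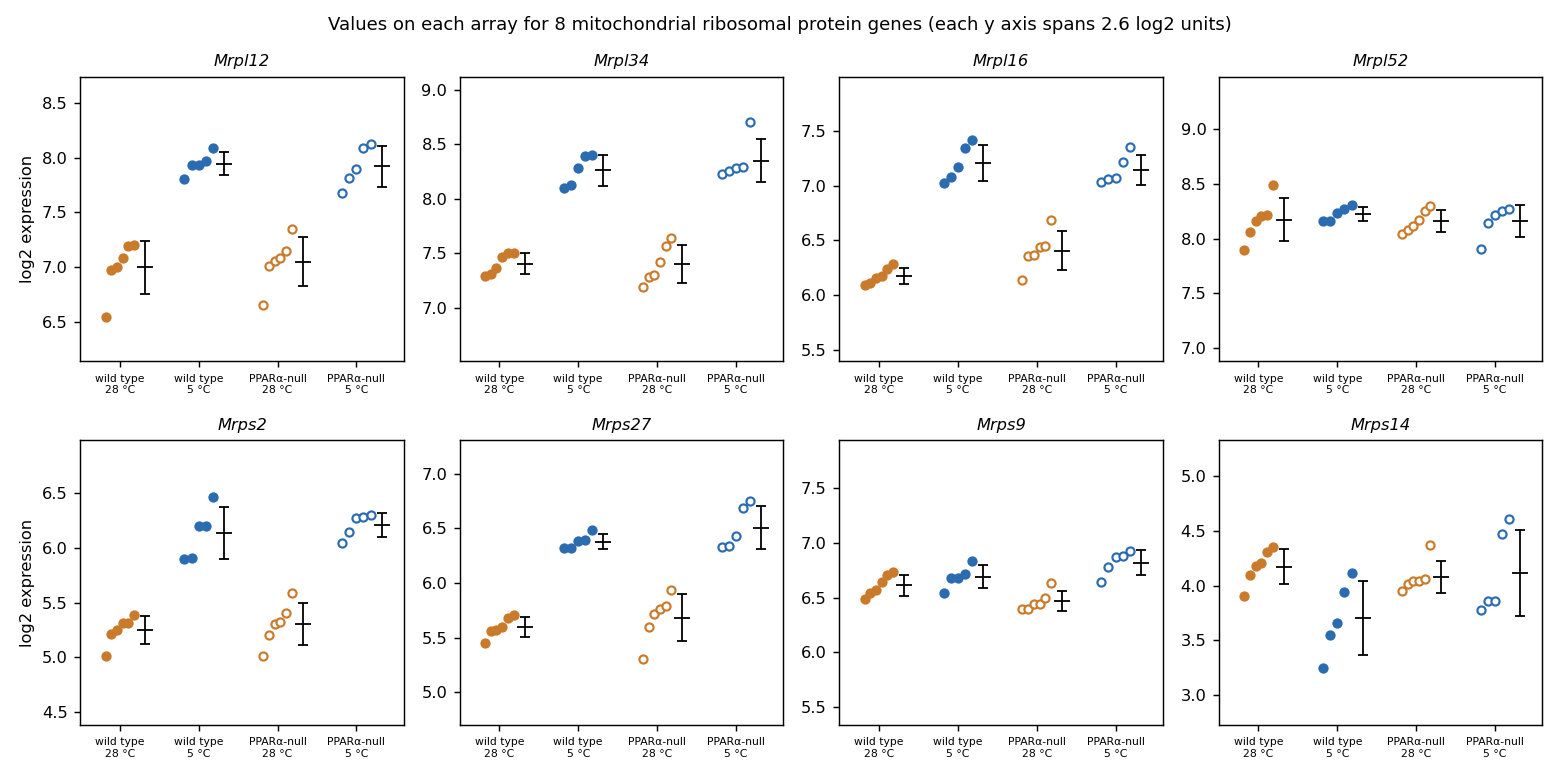
Log2 values on each array for 4 large subunit members (top) and 4 small subunit members (bottom); points are mice, filled for wild type and open for PPARα-null, orange at 28 °C and blue at 5 °C, with the group mean ± SD, and each axis spans the same number of log2 units. Mrpl12, Mrpl34, Mrpl16, Mrps2 and Mrps27 show cold mice above all warm mice, Mrpl52 shows overlap, and for Mrps9 and Mrps14, whose cold effects were not shown to differ between genotypes, the groups touch or overlap.

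In the small subunit Mrps2, the counterpart of a bacterial protein of the same subunit, had the largest average effect. In wild-type mice values ran from 5.01 to 5.39 at 28 °C (median 5.28) and read 5.90, 5.91, 6.20, 6.20 and 6.47 at 5 °C. Null mice lay between 5.01 and 5.58 (median 5.31) and read 6.05, 6.14, 6.27, 6.28 and 6.30. All cold mice were above all warm mice. The changes were 0.89 ± 0.11 (SE; limma adjusted p = 2.98e-06) and 0.90 ± 0.11 (SE; limma adjusted p = 2.88e-06).

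Mrps27 is a pentatricopeptide repeat protein, a type of protein that binds RNA, and its window above has the ETS and YY1 words. Wild-type mice lay between 5.45 and 5.71 (median 5.58) and read 6.32, 6.32, 6.38, 6.40 and 6.48 in the cold. Null mice lay between 5.31 and 5.93 (median 5.74) and read 6.33, 6.34, 6.43, 6.69 and 6.75. Warm and cold mice were separate in both genotypes, with changes of 0.78 ± 0.10 (SE; limma adjusted p = 5.38e-06) and 0.82 ± 0.10 (SE; limma adjusted p = 3.41e-06).

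Mrps23, a mitochondria-specific protein, followed with less spread between mice. Warm wild-type mice lay between 6.68 and 6.98 (median 6.83) and read 7.41, 7.47, 7.58, 7.59 and 7.70 in the cold. Warm null mice lay between 6.85 and 6.96 (median 6.89) and read 7.47, 7.49, 7.61, 7.65 and 7.67. The groups at 5 °C stood clear of those at 28 °C, and the changes were 0.72 ± 0.07 (SE; limma adjusted p = 1.39e-07) and 0.68 ± 0.07 (SE; limma adjusted p = 3.92e-07).

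Mrps36 had the fourth largest average effect of the genes with an Mrps symbol, on a dim probe set. Wild-type mice lay between 3.71 and 4.68 (median 4.19) and read 4.44, 4.73, 4.83, 4.87 and 4.94 in the cold. Null mice lay between 3.90 and 4.77 (median 4.23) and read 4.63, 4.75, 4.82, 5.04 and 5.30. The groups overlapped in both genotypes, with changes of 0.58 ± 0.17 (SE; limma adjusted p = 0.0231) and 0.64 ± 0.17 (SE; limma adjusted p = 0.0152). The wild-type call was lost (limma adjusted p = 0.0502 to 0.0619, change 0.48 to 0.56) when replicate 2 or 5 at 28 °C or replicate 1, 4 or 5 at 5 °C was left out, and the null call when replicate 1 at 5 °C was (change 0.54, limma adjusted p = 0.0575). With the muscle and lymphocyte means as covariates the wild-type change was 0.53 (limma adjusted p = 0.0605). The other members among the 10 largest, as changes in wild type and null mice, were Mrps22 (0.72 and 0.48), Mrps5 (0.59 and 0.55), Mrps18b (0.53 and 0.58), Mrps34 (0.56 and 0.52), Mrps35 (0.56 and 0.48) and Mrps7 (0.49 and 0.49), all called in each genotype.

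Mrps14, the counterpart of a bacterial protein of the small subunit head, was the 1 member called lower. Wild-type mice lay between 3.90 and 4.36 at 28 °C (median 4.19) and read 3.25, 3.54, 3.66, 3.94 and 4.12 at 5 °C. Null mice lay between 3.95 and 4.37 (median 4.04) and read 3.78, 3.86, 3.86, 4.47 and 4.61. In wild type 3 cold mice lay below all warm mice and the other two among them, while the null mice spread to both sides. The change was -0.47 ± 0.16 (SE; limma adjusted p = 0.0417) in wild type and 0.04 ± 0.16 (SE; limma adjusted p = 0.928) in null mice, and their difference of 0.51 (95% interval 0.05 to 0.97, limma adjusted p = 0.963) was not called. The wild-type call was lost without any 1 of replicates 2 to 6 at 28 °C or replicates 1, 3 and 4 at 5 °C (change -0.49 to -0.36, limma adjusted p = 0.0548 to 0.134). It was also lost with array medians subtracted (change -0.41, limma adjusted p = 0.0788), after quantile normalization (change -0.45, limma adjusted p = 0.0623) and with the muscle and lymphocyte means as covariates (change -0.46, limma adjusted p = 0.0692). Averaged over genotypes the change was -0.22 (limma adjusted p = 0.172). Its window above has the NRF1 word at 2 places.

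Mrps18a, a large subunit protein by structure, had the second lowest average effect under an Mrps symbol. Wild-type values were 6.50 to 6.97 at 28 °C (median 6.75), and the cold mice read 6.84, 6.91, 7.03, 7.05 and 7.13 in the cold. Null mice lay between 6.63 and 6.84 (median 6.77) and read 6.72, 6.73, 6.87, 6.99 and 7.02. The groups overlapped, and the changes were 0.24 ± 0.09 (SE; limma adjusted p = 0.0649) and 0.12 ± 0.09 (SE; limma adjusted p = 0.452). The average of 0.18 was called (limma adjusted p = 0.0358), but not with the muscle and lymphocyte means as covariates (0.13, limma adjusted p = 0.126). It was also not called (0.16 to 0.18, limma adjusted p = 0.0515 to 0.0734) without any 1 of wild-type replicates 3, 5 and 6 at 28 °C and 2, 3 and 5 at 5 °C, or null replicates 1 and 5 at 28 °C and 1, 2 and 5 at 5 °C. The wild-type change alone was called without replicate 1 or 4 at 28 °C or replicate 4 at 5 °C (0.28 to 0.29, limma adjusted p = 0.0314 to 0.0438), with array medians subtracted (0.31, limma adjusted p = 0.0276), with the dimmest 25% or 50% of genes left out (limma adjusted p = 0.0448 and 0.0269) and with trend and robust settings of eBayes (limma adjusted p = 0.0464). Mrps18c, a paralog, had changes of 0.19 and 0.21 on the brighter of its probe sets, neither called. Its other probe set was nearly as bright (mean 4.51 against 4.72) and gave 0.31 and -0.27.

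Mrps9, the counterpart of a bacterial protein whose tail reaches the bound tRNA, had the smallest p among members for a difference between the genotypes' cold effects. Wild-type mice lay between 6.49 and 6.73 (median 6.61) and read 6.54, 6.68, 6.68, 6.71 and 6.84 in the cold. Null mice lay between 6.40 and 6.64 (median 6.44) and read 6.64, 6.78, 6.87, 6.88 and 6.93. In wild type the temperatures overlapped, and in null mice the lowest cold mouse met the highest warm one. Mrps9 rose by 0.35 ± 0.07 (SE; limma adjusted p = 0.00141) in null mice and had a change of 0.08 ± 0.07 (SE; limma adjusted p = 0.547) in wild type. The difference was 0.28 with a 95% interval of 0.07 to 0.49 (limma adjusted p = 0.963) and was not called.

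Mrps21, the counterpart of a small bacterial ribosomal protein, had the smallest p among members in the genotype comparison at 5 °C. The wild-type mice at 28 °C lay between 6.50 and 6.73 (median 6.61) and read 6.99, 7.09, 7.11, 7.20 and 7.45 at 5 °C. The null mice at 28 °C lay between 6.25 and 6.66 (median 6.46) and read 6.67, 6.86, 6.91, 6.95 and 7.06. In each genotype the temperatures were separate, and the null mice sat lower than wild type at both, with overlap. The cold changes were 0.56 ± 0.09 (SE; limma adjusted p = 0.000117) and 0.42 ± 0.09 (SE; limma adjusted p = 0.00231), and the null mice at 5 °C were at -0.28 relative to wild type (95% interval -0.47 to -0.08, limma adjusted p = 0.52), which was not called.

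For the genotype itself no member passed the test. The limma test of the difference between the cold effects called 0 of 71 members at an adjusted p under 0.05, where 0% of all genes were called. An unadjusted p under 0.05 was found for 5 of 71 members and for 1137 of all 22180 genes. These 5 were Mrpl1, Mrpl16, Mrpl19, Mrps9 and Mrps14, with differences (null minus wild type) of 0.31, -0.29, -0.33, 0.28 and 0.51. In null against wild-type mice limma called 0 members at 28 °C (4 at an unadjusted p under 0.05, against 1496 of all genes), where 0.0451% of all genes were called higher and 0.149% lower. It called 0 at 5 °C (3 at an unadjusted p under 0.05, against 1476 of all genes), where 0.0406% of all genes were called higher and 0.108% lower. The median standard error of the difference was 0.13, and its 95% interval lay within 1 log2 unit of 0 for all 71 members and within 0.5 for 60. The members' median cold effects were themselves only 0.43 in wild type and 0.38 in null mice. An interval within these bounds can therefore still hold a difference as large as the median effect. Of the 71 differences 39 were negative. A member called in 1 genotype is therefore not shown to differ between them. Those called higher in wild type and not in null mice were Mrpl14, Mrpl17, Mrpl19, Mrpl22, Mrpl49, Mrpl57, Mrps12, Mrps16, Mrps17, Mrps24 and Mrps28, with changes of 0.23 to 0.45 in wild type and 0.11 to 0.32 in null mice. Those called in null and not in wild type were Mrpl45, Mrps9 and Mrps25 (0.37 against 0.20).

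Probe sets of the same member did not always give the same change. For Mrps18b a pair of probe sets followed each other over the arrays (r = 0.898) and gave 0.53 and 0.60 in wild type. For Mrps5 the brighter gave 0.59 in wild-type mice and 0.55 in null mice, and a much dimmer one -0.02 and 0.23. For Mrpl36 the brighter gave 0.49 and 0.45, and the dimmer 0.05 and 0.27. For Mrps16, not called in null mice, the brighter gave 0.33 and 0.14, and the dimmer 0.60 and 0.35. The probe sets of Mrps18c hardly followed each other (r = 0.025), and their changes in null mice had opposite signs (0.21 and -0.27).

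Other genes of mitochondrial translation were read from lists of translation factors, ribosome assembly factors, tRNA synthetases and mitoribosome proteins with other symbols. Of 15 measured translation factors 10 rose in wild-type mice and 11 in null mice, with median changes of 0.48 and 0.41 and none lower. The factors with the smallest p, as changes in wild type and null mice, were Gfm1, the elongation factor that moves the ribosome along the mRNA (1.10 and 1.08), Taco1, an activator of cytochrome oxidase translation (1.04 and 0.87), Lrpprc, which stabilises mitochondrial mRNAs (0.95 and 0.84), and Tsfm, which recharges the elongation factor that brings tRNAs (0.83 and 0.65). Of 19 measured tRNA synthetases and related enzymes 12 rose in wild-type mice and 10 in null mice, with medians of 0.39 and 0.30 and none lower. Those with the smallest p were Iars2 (0.51 and 0.50), Sars2 (0.83 and 0.53), Qrsl1 (0.50 and 0.47) and Tars2 (0.39 and 0.29).

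Of 28 ribosome assembly factors 11 rose in wild-type mice and 12 in null mice, with medians of 0.24 and 0.25 and none lower. Those with the smallest p were Eral1, a chaperone of the small subunit rRNA (0.53 and 0.39), Grsf1, a protein of mitochondrial RNA granules (0.50 and 0.60), C1qbp (0.45 and 0.42) and Mpv17l2 (0.66 and 0.52). Of 6 other symbols listed for mitoribosome proteins 3 had a probe set of their own under that symbol, which does not show that the other proteins were unmeasured. Gadd45gip1, a large subunit protein, rose by 0.52 and 0.53 (limma adjusted p = 0.00389 and 0.00413). Ptcd3, a small subunit protein, fell by 0.40 in wild type (limma adjusted p = 0.0152) and had a change of -0.33 in null mice (limma adjusted p = 0.0521). Its average over genotypes, -0.37, was called lower (limma adjusted p = 0.00123). Dap3, a GTP-binding protein of the small subunit, had changes of 0.18 and 0.22, neither called, though its average of 0.20 was (limma adjusted p = 0.0107). Lars2, the mitochondrial leucyl-tRNA synthetase, was lower in null mice at 28 °C (-0.45, limma adjusted p = 0.0141) and at 5 °C (-0.66, limma adjusted p = 0.000532), and it is named after its values were seen.

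The products of the mitochondrial ribosome join nuclear subunits of the respiratory chain and ATP synthase, which served as a comparison together with the proteins of the cytosolic ribosome. Of 78 nuclear respiratory chain and ATP synthase genes 66 rose in wild-type mice and 64 in null mice, 0 and 1 fell, and the medians were 0.69 and 0.67. The members' mean minus the mean of these genes was formed in each mouse. Its group mean differed between 5 °C and 28 °C by -0.28 in wild-type mice and by -0.31 in null mice. The list of these genes includes Cox7a1 (3.68 and 3.88) and Cox8b (3.17 and 2.96), which are also among the thermogenic markers. The part of these genes in that difference was not tested. Of 68 cytosolic ribosomal protein genes 2 rose and 31 fell in wild type, and 0 rose and 23 fell in null mice, with medians of -0.26 and -0.19. With array medians subtracted 24 and 17 of them fell, and the medians were -0.19 and -0.15.

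**Figure D4:**
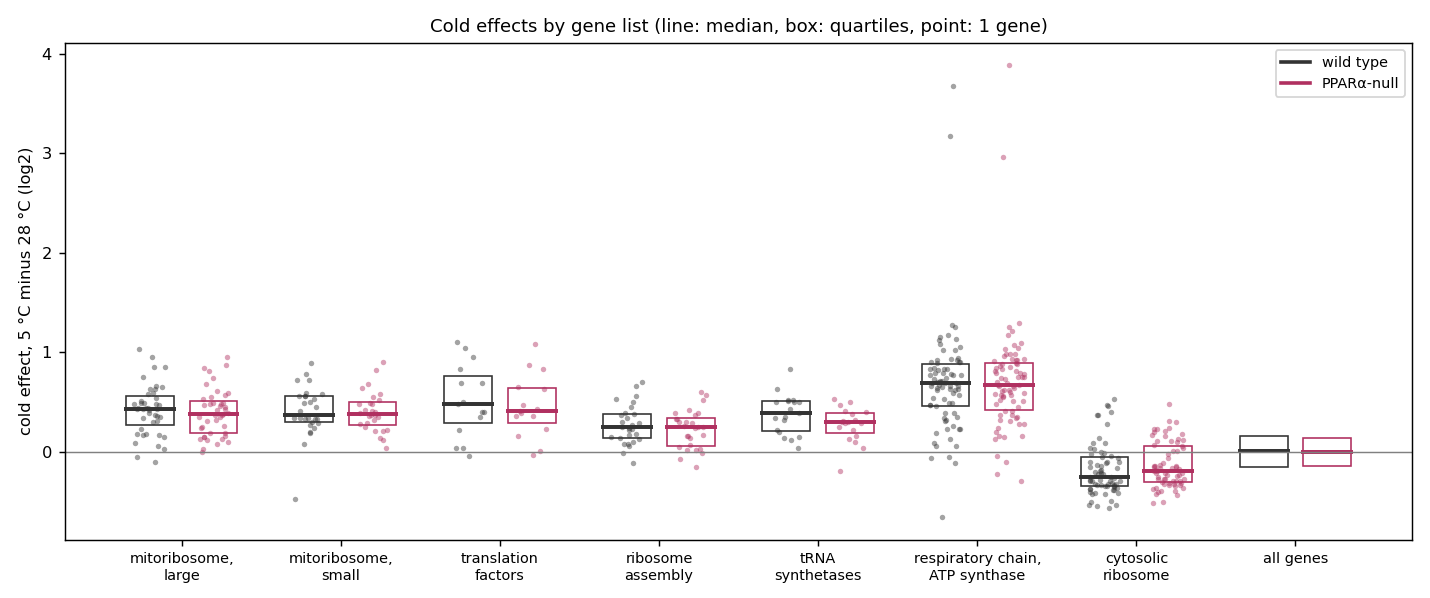
Cold effects (log2, 5 °C minus 28 °C) of single genes by list, in wild-type mice (black) and PPARα-null mice (red); points are genes, thick lines the medians and boxes the quartiles, and for all 22180 genes no points are drawn. The medians of the mitoribosome lists are 0.37 to 0.43 and those of the respiratory chain 0.69 and 0.67. The medians of the cytosolic ribosome are below 0, and its box in null mice reaches 0.06.

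Markers of other cells moved with temperature in part. The mean of the 12 muscle markers moved by -0.68 in wild-type mice and 0.37 in null mice, with ranges of 6.76 to 8.75 and 5.82 to 9.47 in warm and cold wild-type mice and 5.45 to 8.13 and 5.99 to 9.05 in null mice. The muscle mean also differed between genotypes (null minus wild type), by -1.39 at 28 °C and -0.34 at 5 °C. At 28 °C 8 of these 12 markers had an unadjusted limma p under 0.05, and none was called. The mean of the 11 lymphocyte markers moved by -0.61 and -0.76, with ranges of 4.41 to 7.55 and 4.29 to 5.86 in wild type and 4.56 to 8.06 and 4.01 to 6.89 in null mice. With both means as covariates 52 members rose in wild type (32 large and 20 small subunit) and 48 in null mice (28 and 20). The share of all genes called in that fit was not counted, so these counts have no background beside them. The 10 macrophage markers fell by means of 0.67 and 0.62, and the 7 thermogenic markers rose by means of 3.81 and 3.85, and the part of either in the members' changes was not tested.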

How the data were processed

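RNA of inguinal white fat (100 ng, integrity number above 8) was hybridised to whole-transcript mouse arrays, 1 of the 22 mice per array, and 10 mice were housed per group per the labels. The sources used here do not give how the arrayed mice were chosen. Each deposited value is a log2 value of a probe set, which the authors computed with RMA, per the submitters' processing notes. Neither its version nor the annotation build was given in the sources used here. RMA makes the arrays alike in distribution, so a change shared by most genes is not seen.

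Of 41345 probe sets 23521 had 1 symbol, 1814 several and 16010 none. The brightest stood for each of 1082 genes with more than 1. Another 7 genes with Mrpl or Mrps symbols were only on probe sets with several symbols and were left out of the members. The 4 groups were fitted together in limma 3.58.1 under R 4.3.3 (18 residual and 3.35 prior degrees of freedom), with 95% intervals and errors of changes from the fit and no filter on low signals. On simulated data the fit recovered 54% of wild-type cold effects of 0.5 log2 units and 88% of those of 1 unit, and 26% and 76% of differences between the cold effects. There, 50 of 22180 genes were changed per effect size, only in wild-type mice at 5 °C. In the data 16.7% of genes were called for the wild-type cold effect. The adjustment of p depends on the share of changed genes, so these percentages are not the recovery behind the reported counts. Other software was pandas 2.3.3, matplotlib 3.10.9 and, in R, the package for tables (data.table, version 1.17.8).

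The members and the gene lists were chosen with earlier results of these data known. Given mouse by mouse were the 4 largest and 2 lowest average cold effects of each subunit and the member with the smallest p in each genotype comparison. Named with changes were the 10 largest and 6 lowest of each subunit, members called lower or in 1 genotype, and the 4 genes of each other list with the smallest p in the average cold effect. No list was given a test of its own. A list of 15 mitochondrial genome transcripts had no measured gene under these symbols. Alternatives were other scalings, filters on dim genes, summaries of probe sets, error models, a stricter threshold, a replicate block, placement by structure, marker means as covariates and leaving out each array.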

Additional observations from a re-analysis of the deposited data

Results flagged for a closer look

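In 72 groups of 5 or 6 mice, each group for 1 described value, 4 had a mouse far from the others by Dixon's test, and chance gives about 5% of groups. The lowest wild-type mouse at 28 °C read 6.542 for Mrpl12, where the next read 6.974. The highest null mouse at 5 °C read 8.699 for Mrpl34, where the next read 8.292. The highest null mouse at 28 °C read 4.369 for Mrps14, where the next read 4.062. The lowest wild-type mouse at 5 °C had a large subunit mean minus small subunit mean of 0.078, where the next had 0.145.

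Probe sets with several symbols, 1 of them a mitochondrial ribosomal protein, were left out of the members and held signal of the same kind. Of these 7 probe sets 5 were called higher in the cold in wild-type mice and 5 in null mice (limma, Benjamini-Hochberg adjusted p under 0.05), with median changes of 0.37 and 0.47, and the genes on them cannot be told apart.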

How the results depend on the processing

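Members called higher numbered 41 to 60 in wild type (55 as reported) and 42 to 52 in null mice (47 as reported) over 13 alternatives, and 48 to 56 and 44 to 47 when 1 array was left out. These counts are not all out of 71 members. The alternative that took in probe sets of several symbols had 78, and filters on dim genes and placement by structure left members out. The lowest count in each genotype came at an adjusted p under 0.01, where 15 small subunit members were higher in wild type in place of 23. The 1 member called lower in wild type, Mrps14, became 0 members at an adjusted p under 0.01, with array medians subtracted, after quantile normalization, with the dimmest 50% of genes left out (which also leaves out Mrps14), with muscle and lymphocyte means as covariates and with a replicate block, and 0 to 1 when 1 array was left out. With array medians subtracted the members' mean moved by 0.482 in wild type (0.417 as reported), 59 and 50 members were higher in wild-type and null mice, and of all genes 2592 were higher and 1203 lower in wild type (1852 and 1841 as reported) and 1802 and 987 in null mice (1525 and 1405 as reported).

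Replicate numbers did not pair the mice: the deviations of 31 same-numbered pairs correlated by -0.246 to 0.35 (median -0.041), and 4 of 22 mice correlated best with their own number. With the replicate number as a block 53 members were higher in wild-type mice and 47 in null mice, and besides Mrps14 the call of the average cold effect of Mrps18a was lost (0.178, limma adjusted p = 0.0875). No member was called in the difference of the cold effects or in a genotype comparison under any alternative run. For the members given mouse by mouse 2767 alternative values stayed on their side of the threshold, 36 lost the call and 7 gained it. No called value changed sign, while uncalled values near 0 did, such as the wild-type cold effect of Mrpl27 (-0.291 to 0.061 when 1 array was left out).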
